A study of Mus musculus with 8 samples.

Results

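The collagen genes were followed through heart RNA of 16-day-old mice of 4 genotypes. Members were all genes whose mouse symbol is Col, a number, the letter a and a number, found by gene ID in the tables of read counts and RPKM (reads scaled for gene length and for library depth). They were 44 of 18656 genes listed in any library, and included each of the 44 such symbols in RefSeq. By the kind of assembly their proteins form, 11 were fibrillar, 6 were the chains of the basement membrane collagen, type IV, and 27 were of other types. Each genotype had 2 libraries, each from several pooled hearts, on a C57BL/6 background by the labels and C57BL6/J by the study's methods. The reference genotype, αHetγWT, carried 1 intact allele of ERRα, as did αHetγKO. αKOγWT and αKOγKO lacked ERRα in the whole body. γKO stands for a floxed ERRγ gene cut by Myh6-Cre, a recombinase driven in cardiomyocytes, as the study states for αKOγKO, so that other heart cells kept ERRγ. Whether the γWT hearts carried Cre was not given in the sources used here, so Cre and ERRγ loss cannot be told apart. No group was wild type for ERRα.

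Collagens are the main structural proteins of the extracellular matrix, made of chains that wind around each other into a rope-like helix. Fibrillar collagens such as types I, III and V pack side by side into the fibers that give the heart wall its tensile strength, and cardiac fibroblasts make most of them. Type IV forms a sheet-like net under endothelial cells and around each cardiomyocyte. Among the others, FACIT collagens (fibril-associated collagens with interrupted helices) decorate fibrils, type VI forms beaded filaments, type VIII forms open networks around vessels, and types XV and XVIII lie at the border of basement membranes. ERRα and ERRγ are nuclear receptors that drive genes of energy metabolism in the heart. The question here is which collagens differed in hearts without both receptors, and whether fibrillar, basement membrane and other types differed alike.

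The libraries held 28.2M to 36.8M uniquely assigned reads. Esrra, the gene of ERRα, gave 2962 to 3483 reads in the 4 αHet libraries and 84 to 136 in the 4 αKO libraries, on the side their labels give. Esrrg, the gene of ERRγ, gave 1055 to 1486 reads in the 6 other libraries and 3012 and 3461 in αKOγKO, but a total over the gene cannot show a lost exon, so it checks no γKO label. The 2 αKOγKO libraries stood apart from each other. Xist, an RNA that only female cells make in quantity, had 7142 reads in αKOγKO replicate 1 and 6 to 14 in each other library. Of the 41 collagens tested, 32 were higher in αKOγKO replicate 1 than in replicate 2, with a median log2 ratio of 0.50, against 0.01 over all 15076 genes tested. The cardiomyocyte markers summed to 31390 RPKM in αKOγKO replicate 1 and to 35510 in replicate 2, against 41710 to 44300 in the 6 other libraries. The most abundant markers dominate this sum, and the markers did not all change alike, as their counts below show. The part of these differences in the results was not tested, and the counts of collagens, their classes and each called collagen are given with and without αKOγKO replicate 1.

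In all libraries the collagen pool was dominated by a few genes. By RPKM, a level per gene length that can be set side by side between genes, 31 of the 44 members had a mean of at least 1 over the 8 libraries and 7 of at least 100. The highest was Col3a1, the chain of type III fibrils (430.9 RPKM), followed by Col4a1 and Col4a2, the common type IV chains (267 and 233), Col1a2 and Col1a1, the type I chains (210.4 and 191), and the type VI chains Col6a2 and Col6a1 (109 and 108). Collagens took 0.802% and 0.862% of reads (αHetγWT), 0.893% and 1.02% (αHetγKO), 1.01% and 0.869% (αKOγWT), and 1.75% and 1.18% (αKOγKO). Both αKOγKO libraries lay above the 6 others. The exact (Clopper-Pearson) 95% interval of each share reached at most 0.0042 percentage points to either side, for counting error only.

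The make-up of the pool also differed. Fibrillar chains made up 45.5% and 45.8% of summed collagen RPKM (αHetγWT), 48.0% and 48.8% (αHetγKO), 47.7% and 49.6% (αKOγWT), and 55.2% and 54.6% (αKOγKO). Type IV chains made up 33.3% and 32.9% (αHetγWT), 30.6% and 30.4% (αHetγKO), 30.2% and 28.3% (αKOγWT), and 24.9% and 25.6% (αKOγKO). The αKOγKO libraries held the highest fibrillar and the lowest type IV shares of the 8, and here the 2 of them were close to each other. As single ratios, Col1a1 over Col4a1 was 0.493 and 0.529 in αHetγWT and 0.930 and 1.02 in αKOγKO, and Col3a1 over Col4a1 was 1.28 and 1.29 against 2.06 and 2.04. With 2 libraries against 2, an exact two-sided permutation test of such a share or ratio cannot go below p = 0.333, so none is given.

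**Figure D1:**
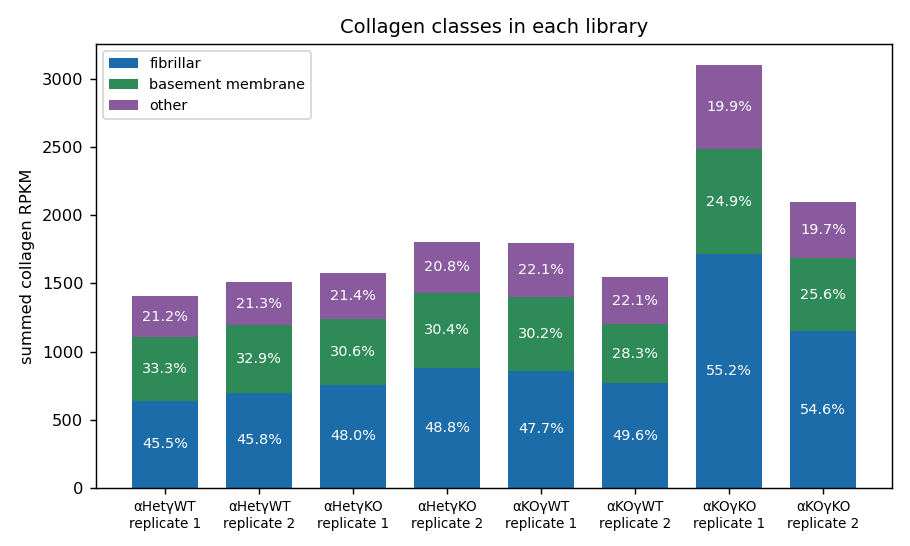
Summed RPKM of the fibrillar, basement membrane (type IV) and other collagens in each library, stacked, with the percentage of each class written in the bar. Fibrillar chains are 55.2% and 54.6% of the αKOγKO sums and 45.5% to 49.6% in the 6 other libraries, and the total is largest in αKOγKO replicate 1.

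In αKOγKO hearts, 22 of the 41 tested collagens rose and 1 fell against αHetγWT (edgeR quasi-likelihood test, Benjamini-Hochberg adjusted p under 0.05 over all genes tested). Over all 15076 genes tested, 20.7% were higher and 21.5% lower in that comparison. Of the fibrillar collagens 8 of 11 rose and none fell, with a median log2 fold change over the 11 of 1.10. Of the type IV chains 4 of 6 rose and none fell, with a median of 0.63. Of the 24 other collagens tested, 10 rose and 1 fell, with a median of 0.61. The median over all genes tested was 0.01. With counts scaled by library totals alone that median moved to 0.13, all genes split into 4241 higher and 2451 lower in place of 3127 and 3237, and 29 collagens were called higher and 0 lower. The fibrillar median lay above that of type IV under the alternatives run except on log2(RPKM + 1), where they were 0.41 and 0.59. Leaving out αKOγKO replicate 1, 17 collagens were called higher and 1 lower, and the class medians were 0.77, 0.27 and 0.49. Without αKOγKO replicate 2, 29 were higher and 1 lower. Of the 23 calls, 11 held without each of the 8 libraries in turn, and they were Col1a1, Col1a2, Col3a1, Col5a2, Col4a4, Col4a6, Col8a1, Col8a2, Col9a2, Col12a1 and Col16a1. The count was 15 without either αHetγWT library. On TMM-scaled counts both αKOγKO libraries lay above all 6 others for 23 collagens and below them for 2, where 25.3% of all genes tested lay above and 25.3% below.

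**Figure D2:**
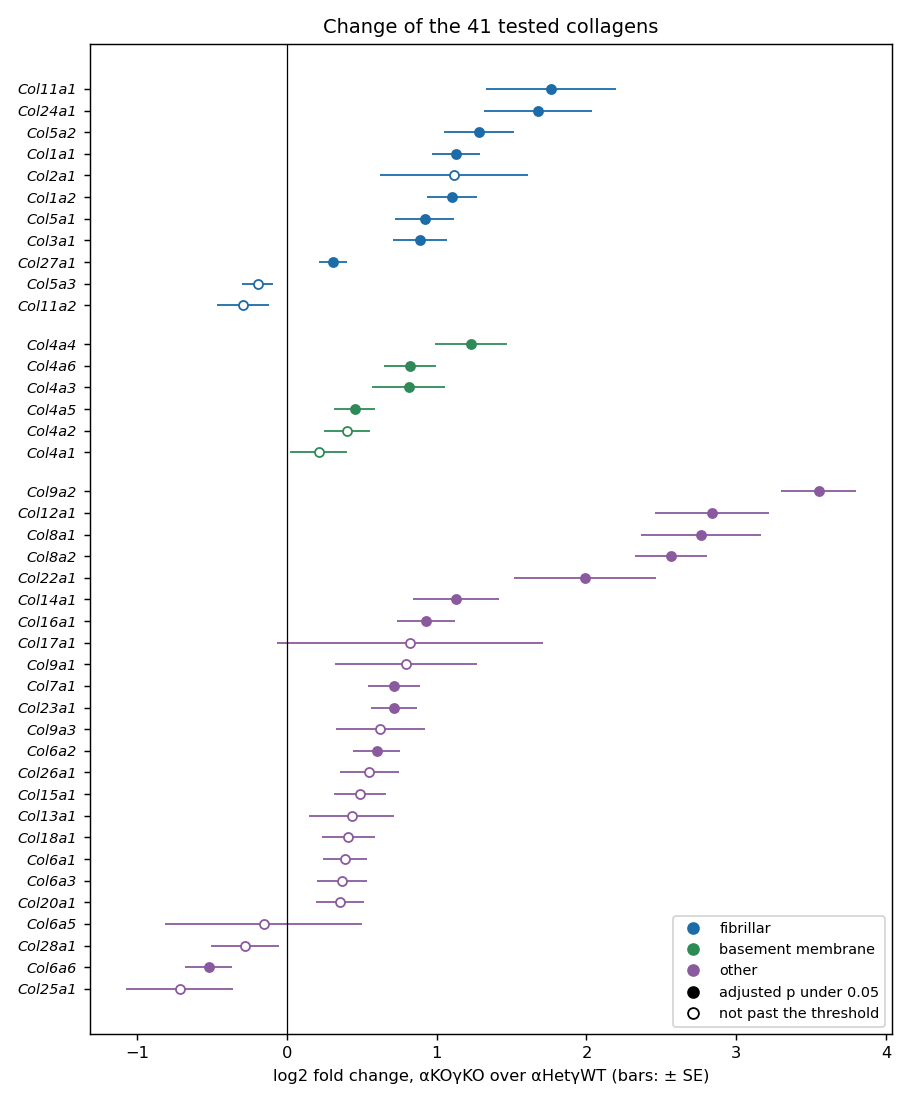
log2 fold change of αKOγKO over αHetγWT for each of the 41 tested collagens, by class, with bars of ± SE from the edgeR fit. Filled points passed an adjusted p of 0.05 and open points did not. The filled points lie above 0 except that of Col6a6, and Col9a2, Col12a1, Col8a1 and Col8a2 lie farthest to the right.

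The chains of the common fibers rose together. Col1a1 and Col1a2 form type I, the stiff fiber of scar and tendon, and Col3a1 forms type III, the more compliant fiber beside it. Col1a1 gave 118 and 136 RPKM (αHetγWT), 149 and 180.1 (αHetγKO), 179.6 and 162 (αKOγWT) and 349.9 and 254 (αKOγKO). Col1a2 gave 143 and 147 RPKM (αHetγWT), 164 and 192 (αHetγKO), 187 and 174 (αKOγWT) and 405 and 272 (αKOγKO). Both αKOγKO libraries lay above the other 6 for each chain, and αHetγWT lay lowest. The log2 fold change was 1.13 ± 0.16 (SE, adjusted p = 0.000702) for Col1a1 and 1.10 ± 0.17 (SE, adjusted p = 0.00104) for Col1a2. Col3a1 gave 305 and 332 RPKM (αHetγWT), 366 and 419.5 (αHetγKO), 397 and 347 (αKOγWT) and 774 and 507 (αKOγKO), with a log2 fold change of 0.89 ± 0.18 (SE, adjusted p = 0.00461). The groups did not overlap between αKOγKO and the rest, although αKOγKO replicate 2 stood not far above αHetγKO replicate 2 for Col3a1. When αKOγKO replicate 1 was left out, the log2 fold changes were 0.87, 0.77 and 0.54, each past the threshold. The ratio of Col1a1 to Col1a2 RPKM stayed between 0.824 and 0.961 in the 8 libraries.

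Type V and XI chains join the large fibers and set their width. Col5a1 gave 29.4 and 32.0 RPKM (αHetγWT), 33.2 and 38.3 (αHetγKO), 40.9 and 37.6 (αKOγWT) and 77.8 and 48.4 (αKOγKO). Col5a2 gave 24.5 and 24.4 RPKM (αHetγWT), 25.5 and 29.7 (αHetγKO), 30.1 and 25.5 (αKOγWT) and 83.1 and 46.1 (αKOγKO). Col5a1 exceeded Col5a2 by 1.20 to 1.48 times in the 6 other libraries, and the ratio was 0.936 and 1.05 in αKOγKO. The change was 0.92 ± 0.19 (SE, adjusted p = 0.00535) on the log2 scale for Col5a1 and 1.28 ± 0.23 (SE, adjusted p = 0.00257) for Col5a2. They were 0.52 and 0.78 without αKOγKO replicate 1, both past the threshold, and the call of Col5a1 was lost without αHetγWT replicate 1 (0.85, adjusted p = 0.051). Col5a3, the least common type V chain, was not called, with levels of 13.4 to 17.0 RPKM and a log2 fold change of -0.20 ± 0.10 (SE, adjusted p = 0.153).

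The minor fibrillar genes were low in this tissue. Col11a1, a type XI chain best known from cartilage, gave 0.123 and 0.153 RPKM (αHetγWT), 0.156 and 0.205 (αHetγKO), 0.254 and 0.116 (αKOγWT) and 0.657 and 0.363 (αKOγKO). Col24a1, a fibrillar chain known from developing bone, gave 0.183 and 0.133 RPKM (αHetγWT), 0.209 and 0.163 (αHetγKO), 0.174 and 0.224 (αKOγWT) and 0.700 and 0.397 (αKOγKO). Both rose, by a log2 fold change of 1.76 ± 0.44 (SE, adjusted p = 0.0113) and 1.68 ± 0.36 (SE, adjusted p = 0.00585), with the αKOγKO libraries above all others. In the fit without αKOγKO replicate 1, Col11a1 had 1.26 (adjusted p = 0.0536), and Col24a1 had 1.20 (adjusted p = 0.0284), so the call of Col11a1 was lost. It was also lost without αHetγWT replicate 1 or 2 (adjusted p = 0.0847 and 0.0511), and that of Col24a1 without αHetγWT replicate 2 (1.48, adjusted p = 0.0534). Col27a1, a chain of cartilage fibrils, gave 2.95 and 3.08 RPKM (αHetγWT), 3.15 and 2.87 (αHetγKO), 2.83 and 2.90 (αKOγWT) and 4.13 and 4.00 (αKOγKO). Its rise was the smallest called, a log2 fold change of 0.31 ± 0.09 (SE, adjusted p = 0.0268), and the call was lost without αKOγKO replicate 1 (0.27, adjusted p = 0.0754) and without either αHetγWT library (0.27, adjusted p = 0.148, and 0.35, adjusted p = 0.0679). Col2a1, the main cartilage fibril, was at most 0.138 RPKM, with a log2 fold change of 1.12 ± 0.49 (SE, adjusted p = 0.104). Col11a2 was at 1.34 to 2.01 RPKM, with a log2 fold change of -0.29 ± 0.17 (SE, adjusted p = 0.204).

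**Figure D3:**
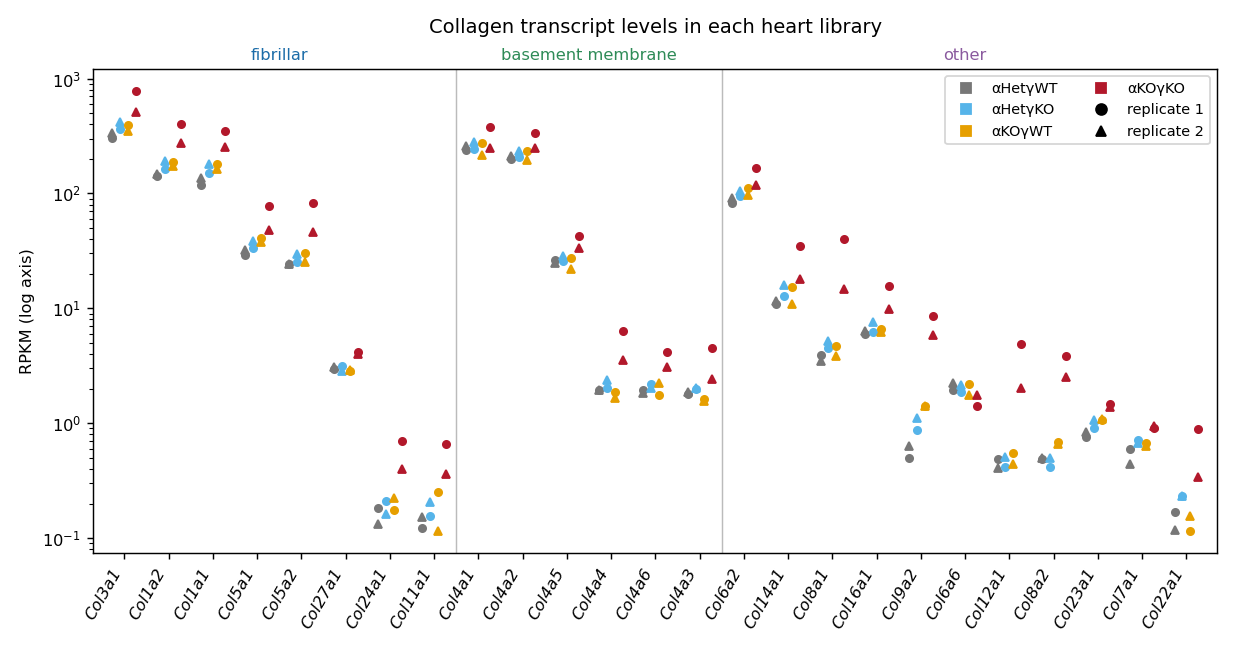
RPKM on a log axis of the 23 called collagens and of Col4a1 and Col4a2 in each library, by class. Colour gives the genotype, circles replicate 1 and triangles replicate 2. Col3a1 runs from 305 RPKM to 774, while Col22a1 stays under 1. Red αKOγKO points lie highest for nearly all genes shown, with the circle above the triangle in most.

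The type IV chains span a wide range of levels. The genes lie in pairs head to head on a chromosome. Col4a1 and Col4a2 make the net found in nearly all basement membranes, while Col4a3, Col4a4, Col4a5 and Col4a6 make the specialised nets known from kidney, eye and smooth muscle. Each chain of the common pair was far higher than any of the other 4, and neither passed the test, although the log2 fold change of Col4a2 (0.40 ± 0.15, SE) was close to that of Col4a5 (0.45 ± 0.14), which passed. No difference between the chains was tested. Since reads of the pairs could in part be shared, the starts are shown. The starts are those used for the windows below, from RefSeq (GRCm38.p6, the mm10 assembly). By them, Col4a1 on the minus strand and Col4a2 on the plus strand start 21 bases apart. They point so that their first exons share 22 bases. The outer bounds of the genes differ from these starts, at 11312889 for Col4a1 and 11312805 for Col4a2. On chromosome X, the starts used for Col4a6 (minus) and Col4a5 (plus) lie 1343 bases apart, with outer bounds at 141474095 and 141475370. The 4 windows of 300 bases, from 250 bases before the start to 50 after it, are printed to show this pairing. Capitals mark CCAAT or TATAA, read on either strand (ATTGG is CCAAT on the other strand). The windows are chr8:11312777-11313076 (minus strand), chr8:11312555-11312854 (plus strand), chrX:141475169-141475468 (plus strand) and chrX:141474027-141474326 (minus strand).
Col4a1: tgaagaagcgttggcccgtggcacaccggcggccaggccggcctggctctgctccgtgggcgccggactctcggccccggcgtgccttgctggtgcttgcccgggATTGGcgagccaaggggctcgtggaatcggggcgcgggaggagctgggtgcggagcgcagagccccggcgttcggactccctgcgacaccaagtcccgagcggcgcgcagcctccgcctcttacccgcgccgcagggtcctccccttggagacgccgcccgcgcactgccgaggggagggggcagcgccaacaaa
Col4a2: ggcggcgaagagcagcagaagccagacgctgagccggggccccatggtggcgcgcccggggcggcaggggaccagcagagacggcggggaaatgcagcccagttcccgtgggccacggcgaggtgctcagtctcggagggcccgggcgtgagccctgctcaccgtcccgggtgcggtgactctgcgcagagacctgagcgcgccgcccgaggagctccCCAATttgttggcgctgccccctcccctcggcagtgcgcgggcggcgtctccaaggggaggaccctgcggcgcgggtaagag
Col4a5: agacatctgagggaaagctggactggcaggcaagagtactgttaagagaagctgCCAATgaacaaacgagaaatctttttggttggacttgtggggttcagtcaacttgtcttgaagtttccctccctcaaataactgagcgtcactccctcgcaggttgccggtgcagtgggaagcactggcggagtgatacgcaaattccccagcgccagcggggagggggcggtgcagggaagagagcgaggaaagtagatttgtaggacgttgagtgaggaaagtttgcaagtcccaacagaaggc
Col4a6: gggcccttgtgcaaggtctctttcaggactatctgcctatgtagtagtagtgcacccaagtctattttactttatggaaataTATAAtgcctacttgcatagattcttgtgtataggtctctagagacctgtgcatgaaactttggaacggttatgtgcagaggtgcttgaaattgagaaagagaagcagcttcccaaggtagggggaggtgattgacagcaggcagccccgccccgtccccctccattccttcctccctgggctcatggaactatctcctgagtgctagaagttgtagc

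The windows of Col4a1 and Col4a2 share 78 bases. Col4a1 holds CCAAT on the opposite strand beginning 145 bases before its start and Col4a2 holds it 32 bases before its start, while Col4a5 holds CCAAT 196 bases and Col4a6 TATAA 168 bases before theirs. Among all 32851 such windows of the mouse, 37.4% hold CCAAT and 24.9% hold TATAA on either strand. Of the 38 windows of 35 collagens, 13 hold CCAAT and 7 TATAA. A match is a description of these letters and not a site. The RefSeq table had no window for Col12a1, Col14a1, Col1a1, Col22a1, Col26a1, Col2a1, Col4a3, Col5a2 and Col9a3.

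Col4a1 gave 238 and 258 RPKM (αHetγWT), 244 and 283 (αHetγKO), 273 and 214 (αKOγWT) and 376 and 249 (αKOγKO). Col4a2 gave 197 and 209.7 RPKM (αHetγWT), 206 and 232 (αHetγKO), 236 and 195 (αKOγWT) and 337 and 247 (αKOγKO). αKOγKO replicate 1 was the highest of the 8 libraries for both chains, while αKOγKO replicate 2 lay within the range of the others for Col4a1 and, by RPKM but not on TMM-scaled counts, above them for Col4a2. On the log2 scale the change was 0.21 ± 0.19 (SE, adjusted p = 0.403) for Col4a1 and 0.40 ± 0.15 (SE, adjusted p = 0.063) for Col4a2, and neither passed. The ratio of Col4a1 to Col4a2 was 1.10 to 1.23 in the 6 other libraries and 1.11 and 1.01 in αKOγKO. Both chains were called without αKOγKO replicate 2, and Col4a2 also with the counts scaled by library totals alone.

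The 4 rarer chains were called, although Col4a3 and Col4a5 lost the call when some single libraries were left out. Col4a4 gave 1.94 and 1.95 RPKM (αHetγWT), 2.05 and 2.36 (αHetγKO), 1.87 and 1.64 (αKOγWT) and 6.37 and 3.53 (αKOγKO). Its partner Col4a3 gave 1.81 and 1.85 RPKM (αHetγWT), 1.98 and 2.03 (αHetγKO), 1.62 and 1.55 (αKOγWT) and 4.54 and 2.44 (αKOγKO). In both, αKOγKO replicate 1 was far above αKOγKO replicate 2, and both lay above the 6 others. The fitted log2 fold change was 1.23 ± 0.24 (SE, adjusted p = 0.00378) for Col4a4 and 0.81 ± 0.24 (SE, adjusted p = 0.0257) for Col4a3. Col4a3 over Col4a4 was 0.860 to 0.969 in the 6 other libraries and 0.712 and 0.693 in αKOγKO. An antisense transcript on the opposite strand shares 563 of 9967 exonic bases of Col4a3, and the counting was not stated to use strand, so their reads cannot be told apart.

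The X-linked pair behaved in the same direction. Col4a5 gave 26.3 and 24.7 RPKM (αHetγWT), 26.0 and 28.4 (αHetγKO), 27.4 and 22.1 (αKOγWT) and 42.7 and 33.3 (αKOγKO). Col4a6 gave 1.96 and 1.82 RPKM (αHetγWT), 2.17 and 2.03 (αHetγKO), 1.75 and 2.23 (αKOγWT) and 4.16 and 3.12 (αKOγKO). Both αKOγKO libraries were above all others for each gene. The gap between the 2 αKOγKO libraries was a log2 ratio of 0.39 for Col4a5 and 0.45 for Col4a6. The median over the 6 type IV chains, these 2 among them, was 0.56. The part of the Xist difference in these gaps was not tested. Col4a5 rose by a log2 fold change of 0.45 ± 0.14 (SE, adjusted p = 0.0256) and Col4a6 by 0.82 ± 0.17 (SE, adjusted p = 0.00534). With αKOγKO replicate 1 left out, the values were 0.73 (adjusted p = 0.00119) for Col4a4, 0.58 (adjusted p = 0.015) for Col4a6, 0.28 (adjusted p = 0.0688) for Col4a3, and 0.25 (adjusted p = 0.105) for Col4a5. The calls of Col4a3 and Col4a5 were thus lost, as they were when αHetγWT replicate 1 or 2 was left out (adjusted p = 0.123 and 0.101 for Col4a3, 0.0889 and 0.13 for Col4a5).

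The largest changes were in neither class. Col8a1 and Col8a2 encode the type VIII network chains, known from vessel walls and the cornea. Col8a1 gave 3.95 and 3.47 RPKM (αHetγWT), 4.49 and 5.22 (αHetγKO), 4.74 and 3.83 (αKOγWT) and 39.9 and 14.7 (αKOγKO). Col8a2 gave 0.483 and 0.500 RPKM (αHetγWT), 0.418 and 0.495 (αHetγKO), 0.692 and 0.655 (αKOγWT) and 3.81 and 2.51 (αKOγKO). Both αKOγKO libraries stood well above the 6 others, which lay close together, with Col8a1 in αKOγKO replicate 1 at 7511 reads against 2747 in replicate 2. The log2 change was 2.76 ± 0.40 (SE, adjusted p = 0.000752) for Col8a1 and 2.56 ± 0.24 (SE, adjusted p = 6.77e-05) for Col8a2, and without αKOγKO replicate 1 it was 1.85 and 2.22, both past the threshold. Another network gene, Col10a1, the collagen of hypertrophic cartilage, had 2 to 8 reads in a library and was not tested.

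Among the FACIT collagens, 5 of the 8 tested rose and none fell, with a median log2 fold change of 1.03. Col9a2, a type IX chain on cartilage and vitreous fibrils, changed most of all collagens. It gave 0.500 and 0.633 RPKM (αHetγWT), 0.879 and 1.12 (αHetγKO), 1.42 and 1.40 (αKOγWT) and 8.59 and 5.90 (αKOγKO). αHetγWT was lowest, αHetγKO next, αKOγWT above that, and both αKOγKO libraries far above all. The log2 fold change in αKOγKO was 3.55 ± 0.25 (SE, adjusted p = 1.3e-05), and 3.24 without αKOγKO replicate 1. Type IX is built from the products of Col9a1, Col9a2 and Col9a3, and the partners were not called. Col9a3 gave 0.301 to 0.447 RPKM in the 6 other libraries and, above them all, 0.554 and 0.575 in αKOγKO (0.62 ± 0.29, SE, adjusted p = 0.124). Col9a1 gave 0.0843 to 0.245 RPKM, with overlap between αKOγKO and the others (0.79 ± 0.48, SE, adjusted p = 0.215). Col9a2 over Col9a3 was 1.66 and 1.72 (αHetγWT), 2.61 and 2.74 (αHetγKO), 3.24 and 3.14 (αKOγWT), and 15.5 and 10.3 (αKOγKO).

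Col12a1, a chain that coats type I fibers in tissues under load, gave 0.486 and 0.405 RPKM (αHetγWT), 0.417 and 0.508 (αHetγKO), 0.552 and 0.439 (αKOγWT) and 4.89 and 2.01 (αKOγKO). The 6 other libraries lay close together and both αKOγKO libraries above them, and the log2 fold change was 2.84 ± 0.38 (SE, adjusted p = 0.000506), or 2.04 without αKOγKO replicate 1. Col14a1, a related coat of type I fibers, gave 10.9 and 11.5 RPKM (αHetγWT), 12.7 and 15.9 (αHetγKO), 15.4 and 10.9 (αKOγWT) and 35.1 and 18.0 (αKOγKO). αKOγKO replicate 2 stood just above αHetγKO replicate 2, and the log2 fold change was 1.13 ± 0.29 (SE, adjusted p = 0.0125), or 0.55 (adjusted p = 0.027) without αKOγKO replicate 1. The call did not hold without αHetγWT replicate 1 or 2 (adjusted p = 0.0839 and 0.0635). Col16a1, a chain found beside several fibril types, gave 6.02 and 6.35 RPKM (αHetγWT), 6.16 and 7.54 (αHetγKO), 6.56 and 6.18 (αKOγWT) and 15.7 and 9.93 (αKOγKO), with a log2 fold change of 0.93 ± 0.20 (SE, adjusted p = 0.00534), or 0.55 without αKOγKO replicate 1. Col22a1, a collagen of tissue junctions such as that of muscle and tendon, was low. It gave 0.168 and 0.118 RPKM (αHetγWT), 0.232 and 0.233 (αHetγKO), 0.114 and 0.154 (αKOγWT) and 0.891 and 0.342 (αKOγKO), with a log2 fold change of 1.99 ± 0.47 (SE, adjusted p = 0.00937). Its call was lost without αKOγKO replicate 1 (1.13, adjusted p = 0.0508) and without αHetγWT replicate 2 (1.77, adjusted p = 0.075). Col20a1 was not called (0.35 ± 0.16, SE, adjusted p = 0.106), and Col19a1 had 0 to 6 reads and was not tested.

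Type VI joins Col6a1, Col6a2 and Col6a3 in beaded filaments near the cell surface. Col6a2 gave 82.1 and 92.0 RPKM (αHetγWT), 95.6 and 106 (αHetγKO), 111 and 95.9 (αKOγWT) and 168 and 119 (αKOγKO), with a log2 fold change of 0.60 ± 0.16 (SE, adjusted p = 0.0144). It passed without αKOγKO replicate 1 (0.32, adjusted p = 0.0347) and not without αHetγWT replicate 1 (0.51, adjusted p = 0.108). Its partners ranged from 88.2 to 154 RPKM for Col6a1 and from 16.4 to 28.0 for Col6a3, and were not called (0.39 ± 0.15, SE, adjusted p = 0.0643 for Col6a1, and 0.37 ± 0.17, SE, adjusted p = 0.116 for Col6a3). Col6a1 over Col6a2 was 0.994 to 1.07 in the 6 other libraries and 0.915 and 0.928 in αKOγKO. Col6a6, an alternative type VI chain, was the 1 collagen that fell. It gave 1.93 and 2.24 RPKM (αHetγWT), 1.88 and 2.13 (αHetγKO), 2.20 and 1.77 (αKOγWT) and 1.40 and 1.77 (αKOγKO), and changed by -0.52 ± 0.16 (SE, adjusted p = 0.0251) on the log2 scale. The call was lost when counts were scaled by library totals alone (-0.40, adjusted p = 0.07809), without αKOγKO replicate 1 (-0.37, adjusted p = 0.102) and without αHetγWT replicate 2 (-0.40, adjusted p = 0.167). Col6a5 was not called (-0.16 ± 0.66, SE, adjusted p = 0.869), and Col6a4 had at most 2 reads and was not tested.

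Col15a1 and Col18a1, at the edge of basement membranes, did not pass. Col15a1, which is known from capillaries and muscle, gave 68.0 and 72.1 RPKM (αHetγWT), 77.6 and 87.4 (αHetγKO), 99.5 and 86.2 (αKOγWT) and 129 and 85.2 (αKOγKO), with a log2 fold change of 0.49 ± 0.17 (SE, adjusted p = 0.051). Col18a1, the source of the peptide endostatin, ranged from 11.0 to 19.5 RPKM, with a change of 0.41 ± 0.18 (SE, adjusted p = 0.0979). Counting both with type IV would give 4 calls of 8 and a median of 0.47. Col7a1, the anchoring fibril of skin, gave 0.599 and 0.441 RPKM (αHetγWT), 0.716 and 0.674 (αHetγKO), 0.678 and 0.632 (αKOγWT) and 0.907 and 0.952 (αKOγKO), and rose by 0.72 ± 0.17 (SE, adjusted p = 0.0104) on the log2 scale. The transmembrane collagen Col23a1 gave 0.763 and 0.833 RPKM (αHetγWT), 0.915 and 1.07 (αHetγKO), 1.07 and 1.08 (αKOγWT) and 1.47 and 1.39 (αKOγKO), and rose by 0.72 ± 0.16 (SE, adjusted p = 0.00618). For each, both αKOγKO libraries were above the rest. Dropping αKOγKO replicate 1 gave 0.74 (adjusted p = 0.0176) for Col7a1 and 0.66 (adjusted p = 0.0189) for Col23a1, and the calls were lost without αHetγWT replicate 2 for Col7a1 (0.52, adjusted p = 0.0765) and without αHetγWT replicate 1 for Col23a1 (0.64, adjusted p = 0.0526). The other tested types, Col13a1, Col17a1, Col25a1, Col26a1 and Col28a1, were not called, with means of 0.06 to 2.80 RPKM and log2 fold changes of -0.72 for Col25a1 to 0.82 for Col17a1.

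**Figure D4:**
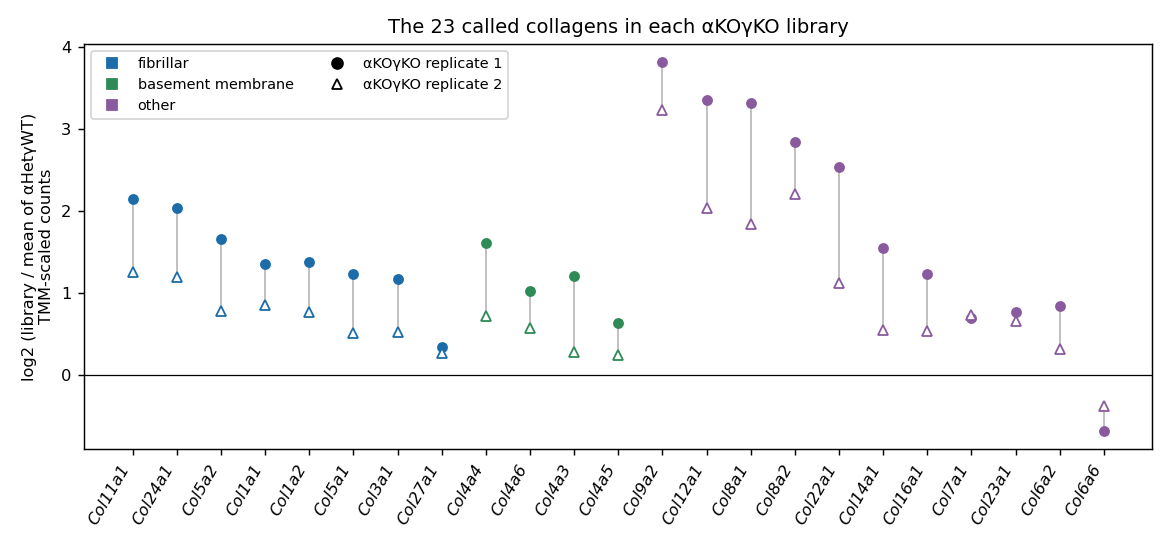
log2 ratio of each αKOγKO library to the mean of the αHetγWT libraries, on TMM-scaled counts, for the 23 called collagens. Filled circles are replicate 1 and open triangles replicate 2. Both libraries lie on the same side of 0 for each gene, replicate 1 lies higher for the 22 that rose except Col7a1, and the gap is widest for Col8a1, Col22a1 and Col12a1.

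Neither cardiac ERRγ loss with 1 ERRα allele left nor loss of the second ERRα allele with ERRγ intact changed a collagen past the threshold. In αHetγKO against αHetγWT, 0 of 41 were called in either direction, where 0.00663% of all genes tested were higher and 0% lower, and 2 had an unadjusted p under 0.05. These were Col9a2 (0.80 ± 0.26, SE) and Col7a1 (0.41 ± 0.18). DESeq2 called 0 as well, where it called 23 of all genes tested higher and 18 lower. The median over the 41 was 0.17, and 35 lay above 0. In αKOγWT against αHetγWT, 0 of 41 were called, where 0.743% of all genes tested were higher and 0.491% lower, and 6 had an unadjusted p under 0.05. The median over the 41 was 0.19, and 30 lay above 0. Col9a2 came nearest the threshold, with 1.31 ± 0.25 (SE, adjusted p = 0.0525). DESeq2 called 2, Col9a2 and Col26a1, where it called 242 of the 15076 genes tested higher and 181 lower. Col15a1, Col1a1, Col1a2, Col26a1, Col5a1 and Col9a2 were called when αKOγKO replicate 1 or 2 was left out. More of all genes were called in those fits as well. The αKOγKO libraries enter this comparison only through the shared estimate of spread and the scaling. The type IV median was -0.03 in αKOγWT and 0.10 in αHetγKO, and the fibrillar median 0.32 and 0.22. The comparisons share the αHetγWT libraries, so their values are not independent.

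Against αKOγWT and against αHetγKO, the αKOγKO hearts showed higher collagens too. Over αKOγWT, 18 of 41 were higher and 1 lower, where 16.6% of all genes tested were higher and 18.2% lower. Over αHetγKO, 16 were higher and 1 lower, where 18.7% were higher and 19.6% lower. These comparisons share the αKOγKO libraries with the main one. Fibrillar calls over αKOγWT were 7 higher, Col1a1, Col1a2, Col3a1, Col5a2, Col11a1, Col24a1 and Col27a1, and 1 lower, Col5a3, while over αHetγKO 8 were higher, those 7 and Col5a1. Of type IV, Col4a3, Col4a4, Col4a5 and Col4a6 were higher over αKOγWT, and Col4a4 and Col4a6 over αHetγKO. Of the other types, Col8a1, Col8a2, Col9a2, Col12a1, Col14a1, Col16a1 and Col22a1 were higher over αKOγWT. Over αHetγKO the higher ones were Col8a1, Col8a2, Col9a2, Col12a1, Col16a1 and Col22a1, and Col6a6 was lower. Col12a1 had a log2 fold change of 2.68 ± 0.38 (SE) over αKOγWT and 2.79 ± 0.38 over αHetγKO. For Col9a2 the values were 2.24 ± 0.23 and 2.75 ± 0.23, and for Col1a1 0.70 ± 0.16 and 0.77 ± 0.16. Col5a3 was the 1 lower over αKOγWT (-0.32 ± 0.10, SE, adjusted p = 0.0396). It gave 14.9 and 16.0 RPKM (αHetγWT), 14.0 and 15.3 (αHetγKO), 16.5 and 17.0 (αKOγWT) and 16.0 and 13.4 (αKOγKO), so the groups overlapped, and the call was lost with scaling by library totals (-0.19, adjusted p = 0.1575) and without 7 of the 8 libraries.

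Many of these calls were lost when a library was left out, and the number of calls over all genes moved as well. Over αKOγWT, 8 of the 19 calls held without each library in turn, and they were Col1a2, Col5a2, Col4a4, Col8a1, Col8a2, Col9a2, Col12a1 and Col16a1. The count was 11 without αKOγWT replicate 1, 15 without αKOγKO replicate 1 and 27 without αKOγKO replicate 2. Over αHetγKO, 4 of 17 held, Col8a1, Col8a2, Col9a2 and Col12a1, and the count was 6 without αHetγKO replicate 1, 9 without αHetγKO replicate 2, 12 without αKOγKO replicate 1 and 26 without αKOγKO replicate 2. Col3a1 lost its call over αHetγKO without 5 of the 8 libraries (adjusted p up to 0.169), and Col22a1 without 7 (up to 0.428).

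The interaction asks whether ERRγ loss changed a collagen more in αKO than in αHet hearts. The estimate was above 0 for 29 of 41 collagens and below 0 for 12. The interaction was called positive for 5 and negative for none, where 6.77% of all genes tested were called positive and 10.7% negative. The 5 were Col8a2 (2.22 ± 0.35, SE, adjusted p = 0.00306), Col12a1 (2.63 ± 0.54, SE, adjusted p = 0.0118), Col9a2 (1.43 ± 0.34, SE, adjusted p = 0.0228), Col8a1 (2.17 ± 0.55, SE, adjusted p = 0.028) and Col4a4 (1.20 ± 0.34, SE, adjusted p = 0.0448). No fibrillar collagen was among them. The interaction was 0.34 ± 0.23 (SE) for Col1a1 and 0.37 ± 0.26 for Col3a1, and 0.93 ± 0.33 (adjusted p = 0.0879) for Col5a2, the fibrillar chain nearest the threshold after Col27a1 (0.39 ± 0.13, adjusted p = 0.0765). For Col12a1, ERRγ loss gave 0.04 ± 0.39 in αHet and 2.68 ± 0.38 in αKO hearts. For Col8a2 it gave -0.12 ± 0.26 and 2.10 ± 0.23. For Col9a2 it gave 0.80 ± 0.26 and 2.24 ± 0.23. Without αKOγKO replicate 1 the 5 were still called, with values of 1.88, 1.84, 1.13, 1.26 and 0.70 in that order, and Col5a3 and Col15a1 were called negative. With other libraries left out, the count was lowest without αHetγKO replicate 1 and highest without αKOγKO replicate 2. Positive calls over all genes were also fewest and most in those fits. Col8a2 alone held its call without each library in turn. The highest adjusted p was 0.0609 for Col12a1, 0.109 for Col9a2, 0.112 for Col8a1 and 0.155 for Col4a4.

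**Figure D5:**
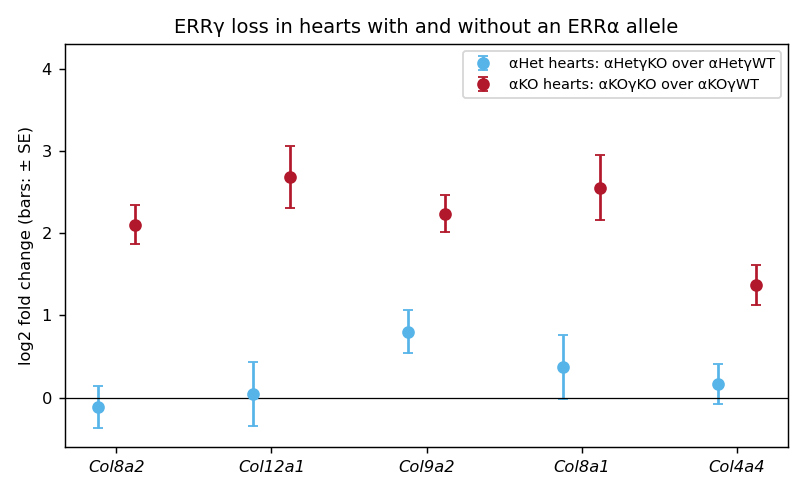
log2 fold change on ERRγ loss in αHet hearts (αHetγKO over αHetγWT, blue) and in αKO hearts (αKOγKO over αKOγWT, red) for the 5 collagens whose interaction passed the threshold, with bars of ± SE. The red points lie above the blue by 1.20 for Col4a4 to 2.63 for Col12a1.

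The genes that make collagen were read beside the collagens. Before secretion, prolyl and lysyl hydroxylases modify the chains, chaperones fold them and export carriers load them, and outside the cell proteases trim the ends and lysyl oxidases crosslink the fibers. Of 36 such genes, 23 rose and 3 fell in αKOγKO against αHetγWT, with a median log2 fold change of 0.57, where 20.7% of all genes tested were higher and 21.5% lower. For a small list such as that of propeptide removal the shares are near those of all genes. Of the hydroxylases and their partners 11 of 13 rose and 1 fell, of the crosslinking enzymes 5 of 6 rose, of the chaperones and secretion factors 4 of 7 rose, of the glycosyltransferases 1 rose and 1 fell, and of the genes of propeptide removal 2 of 8 rose and 1 fell. Without αKOγKO replicate 1 the totals were 21 and 2. P4hb, the shared subunit of prolyl 4-hydroxylase, gave 117 and 122 RPKM (αHetγWT), 130.3 and 134 (αHetγKO), 126 and 129.5 (αKOγWT) and 299 and 256 (αKOγKO). Its log2 fold change was 1.09 ± 0.09 (SE, adjusted p = 3.29e-05). Loxl4, a lysyl oxidase relative, gave 0.517 and 0.367 RPKM (αHetγWT), 0.547 and 0.705 (αHetγKO), 0.773 and 0.843 (αKOγWT) and 3.22 and 2.44 (αKOγKO), with 2.56 ± 0.23 (SE, adjusted p = 6.01e-05). Colgalt1, which adds galactose to collagen, rose (0.74 ± 0.08, SE, adjusted p = 0.000175), while its relative Colgalt2, named after its values were seen, fell (-1.25 ± 0.14, SE, adjusted p = 0.000215). P3h1, a prolyl 3-hydroxylase, rose (0.80 ± 0.09, SE, adjusted p = 0.000202). In αHetγKO and αKOγWT against αHetγWT, 0 of the 36 were called. Of all genes tested, 0.00663% were higher and 0% lower in αHetγKO, and 0.743% higher and 0.491% lower in αKOγWT. A list of this size is thus near those shares. The estimates were above 0 for 28 of the 36 in αHetγKO and 24 in αKOγWT.

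Among 10 collagen receptors, 9 could be tested, of which 4 rose and 1 fell, beside the 20.7% higher and 21.5% lower of all genes. Itgb1, the integrin subunit shared by the collagen-binding integrins, rose by 0.60 ± 0.11 (SE, adjusted p = 0.00261). Ddr1, a receptor kinase that binds collagen, rose by 0.59 ± 0.09 (SE, adjusted p = 0.00121), and Mrc2, which takes up collagen for breakdown, by 1.00 ± 0.19 (SE, adjusted p = 0.00346). Itga10, a partner of Itgb1, fell (-0.67 ± 0.14, SE, adjusted p = 0.0054). The counts were the same without αKOγKO replicate 1.

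Markers of the cell types in the heart were read against the same 20.7% higher and 21.5% lower of all genes tested. In bulk RNA more or fewer cells of a type and more or less RNA per cell cannot be told apart. Of 10 fibroblast markers that are not collagens, 5 rose (4 without αKOγKO replicate 1), and their summed level was 1212 to 1336 RPKM in the 6 other libraries and 1727 and 1519 in αKOγKO. Tcf21, a fibroblast transcription factor, rose by 1.12 ± 0.13 (SE, adjusted p = 0.000234), while Dcn and Pdgfra, defining fibroblast genes that were picked after their values were seen, had 0.17 ± 0.10 and 0.32 ± 0.14 (SE) and did not pass. All 6 markers of activated fibroblasts, of which Lox is also a crosslinking enzyme of the list above, rose with and without αKOγKO replicate 1. Postn, a matrix protein of these cells that was also picked after its values were seen, gave 61.2 and 65.2 RPKM (αHetγWT), 66.7 and 98.4 (αHetγKO), 107 and 75.8 (αKOγWT) and 467 and 209.7 (αKOγKO). Cilp rose by 3.50 ± 0.32 (SE, adjusted p = 6.18e-05) and Acta2, smooth muscle actin, by 2.12 ± 0.14 (SE, adjusted p = 8.85e-06). The activated markers summed to 561 and 585 RPKM in αHetγWT, 1111 to 1232 in αHetγKO and αKOγWT, and 3236 and 2304 in αKOγKO. Acta2 alone gave 505 and 474 RPKM (αHetγWT), 1143 and 986 (αHetγKO), 1090 and 1019 (αKOγWT) and 2608 and 2012 (αKOγKO). It thus made most of the step from αHetγWT to αHetγKO and αKOγWT. Against αHetγWT, 1 of the 6 was called higher in αKOγWT and 0 in αHetγKO, where 0.743% and 0.00663% of all genes were. The sum of the activated markers, like that of the collagens, was higher in αKOγKO replicate 1 than in replicate 2. Their part in the collagen results was not tested.

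Counts for other cell types stand beside the 20.7% of all genes that were higher and the 21.5% that were lower, and several small lists are near or below those shares. Of 10 endothelial markers, 1 rose and 5 fell. Tie1, an endothelial receptor, fell (-1.02 ± 0.09, SE, adjusted p = 3.85e-05). Vwf, named after its values were seen, rose (1.00 ± 0.19, SE, adjusted p = 0.00322). The list summed to 582 and 588 RPKM in αKOγKO against 598 to 680 in the 6 other libraries. Of 9 smooth muscle and pericyte markers 3 rose and 4 fell. Of 8 cardiomyocyte markers 1 rose and 5 fell. Tnni3, a thin-filament subunit, was at -1.63 ± 0.08 (SE, adjusted p = 2.54e-06), and Actn2, the 1 that rose, at 0.60 ± 0.09 (SE, adjusted p = 0.000773). Of 8 macrophage markers 1 rose, and 0 without αKOγKO replicate 1 but 6 without replicate 2. Of 6 cartilage and valve markers tested 2 rose, Sox9, a cartilage and valve transcription factor (1.56 ± 0.19, SE, adjusted p = 0.000308), and Comp (0.74 ± 0.24, SE, adjusted p = 0.0379), at a summed level of 5.44 to 8.55 RPKM in the 6 other libraries and 13.3 and 11.3 in αKOγKO. Of 4 Schwann cell, 4 epicardial and 3 blood markers 0 were called. Of 3 genes tested from the skeletal muscle list 2 rose and 1 fell, while Myh4, of fast skeletal fibers, was listed in no library. In αHetγWT hearts Ckm of that list gave 1912 and 1928 RPKM and Acta1 64.1 and 49.3. The list is thus not specific to skeletal muscle here, and nothing is read from it about skeletal muscle cells. The part of these cell types in the collagen results was not tested either.

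The letters AAGGTCA, the half-site that ERRs bind, were searched on both strands of the collagen promoter windows. They occur in 5 of the 38 windows, those of Col9a1, Col11a1, Col24a1, Col7a1 and Col23a1, and in 4.72% of all 32851 windows. Of these genes 4 were called higher in αKOγKO and Col9a1 was not, where 22 of all 41 tested collagens and 20.7% of all genes were called higher, so nothing is read from this count. The matches are shown with 10 bases on either side, on the strand that reads AAGGTCA, in capitals, to let the sites be found again. They lie at chr1:24177572-24177598, chr3:114030459-114030485, chr3:145292323-145292349, chr9:108953436-108953462 and chr11:51289694-51289720 and begin 28, 71, 139, 140 and 216 bases before the start.
Col9a1: caaaactaacAAGGTCAcactgaagga
Col11a1: aagccgactgAAGGTCAtacccaatca
Col24a1: ggggtggcaaAAGGTCActtgagagct
Col7a1: acttaagggcAAGGTCAggtcccaaga
Col23a1: aagtgtcagaAAGGTCAatctacaagc

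Binding was not measured here, and the windows were looked at after the expression values were known. No match in Col8a1, Col8a2 or Col9a2, the most changed members with a window, says only that these letters are not in the window.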

How the data were processed

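The study measured RNA of pooled mouse hearts by paired-end sequencing of Illumina TruSeq libraries, which were aligned to mm10 per the labels. The aligner, the counter and the use of strand are not given in the sources used here. Each library had 1 table made by the authors. Its unique read counts per gene were deposited raw and without genes at 0 reads, which were set to 0 here. The authors computed RPKM from those counts, the gene length and the table total, and deposited a coverage score of undefined scale, which was not used. All per-sample columns were mapped, and no column held a comparison.

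Counts of 15076 genes that passed filterByExpr (edgeR 4.0.16, R 4.3.3, count minimum 10, total minimum 15) were scaled by trimmed mean of M values (TMM) and fitted in 1 quasi-likelihood model over 8 libraries, with genotype as the term and 4 residual degrees of freedom. P-values are two-sided, adjusted by Benjamini-Hochberg over all genes tested and called under 0.05. SE is the absolute log2 fold change over the square root of F. Each adjusted p in the text comes from this model, or, where a left-out library or another scaling is named beside it, from the same edgeR test refitted that way, unless another tool is named. The edgeR test was also run on simulated data with known changes. Replicates were pools of hearts, so p-values measure the spread between these pools. Leaving out a library leaves a lone sample, which is assumed to vary like the other groups. Other scalings, filters, DESeq2 1.42.0, limma 3.58.1 on log2(RPKM + 1) or log2(RPKM + 0.1), fits on the compared groups, the replicate number as a block and each library left out were alternatives. Scaling by library totals and the list counts without each αKOγKO library were chosen after seeing the data.

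The members and lists were chosen with earlier results of these data known. Values of each library are given for members called in any comparison and for a few others, and at most 4 genes of a list by smallest adjusted p are named, with exceptions marked. Promoter windows are those of RefSeq (GRCm38.p6), and exon overlaps came from GENCODE M21. Tables and figures were made with Python 3.11.15, pandas 2.3.3 and matplotlib 3.10.9.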

Additional observations from a re-analysis of the deposited data

Results flagged for a closer look

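By the interaction test of the edgeR model, 5 collagens responded more to ERRγ loss where ERRα was absent than where 1 allele was left. Over all genes tested, 6.77% were called positive and 10.7% negative. Of the 5 calls, that of Col8a2 held without each library in turn, while of the 8 fits with 1 library left out Col4a4 and Col8a1 lost the call in 6, Col9a2 in 4 and Col12a1 in 2. The difference was 2.22 for Col8a2, on the log2 scale, with an effect of 2.10 in αKO and -0.12 in αHet hearts (adjusted p = 0.00306). It was 2.63 for Col12a1, from 2.68 and 0.04 (adjusted p = 0.0118), and 1.43 for Col9a2, from 2.24 and 0.80 (adjusted p = 0.0228). Col8a1 had a difference of 2.17, from 2.55 and 0.38 (adjusted p = 0.028), and Col4a4 one of 1.20, from 1.37 and 0.17 (adjusted p = 0.0448). With 2 libraries a genotype, no group could be searched for a single far-off sample.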

How the results depend on the processing

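No value of a called collagen changed sign. Of 1137 values of the 64 pairs of a called collagen and a comparison under the alternatives, 992 kept the call and 145 lost it, and 40 pairs lost it in at least 1 alternative. Leaving out 1 library at a time gave counts of 15 to 30 in αKOγKO against αHetγWT, 0 to 6 in αKOγWT against αHetγWT, 11 to 27 in αKOγKO against αKOγWT, 6 to 26 in αKOγKO against αHetγKO and 1 to 19 for the interaction. In αKOγWT against αHetγWT, 1 collagen was called with library totals, 1 with no filter, 2 by DESeq2 and 2 in a fit of the compared groups, against 0, and in αKOγKO against αKOγWT that last fit gave 12 in place of 19. For each range above, the left-out-library fit with the most calls over all genes also had the most collagen calls. That with the fewest had the fewest. In αKOγWT against αHetγWT, all genes split into 112 higher and 74 lower in the main fit and 109 and 75 with library totals. They split into 143 and 97 with no filter, 242 and 181 by DESeq2, and 221 and 181 in the fit of the compared groups. For αKOγKO against αKOγWT that last fit gave 1491 and 1860 in place of 2505 and 2743. The causes of these moves were not tested. The interaction had no such fit, since it uses all groups. In αHetγKO against αHetγWT the count was 0 under every alternative run. On log2(RPKM + 1), which understates changes of low genes, the medians in αKOγKO against αHetγWT were 0.41 for fibrillar and 0.46 for other collagens in place of 1.10 and 0.61, so that type IV was highest at 0.59. In that comparison the log2(RPKM + 1) and log2(RPKM + 0.1) fits split all genes into 4168 higher and 2424 lower and into 4154 and 2451, and each called 28 collagens higher and 0 lower. Same-numbered libraries had correlations of deviations of -0.183 to 0.0884. With 2 pools a genotype, this cannot exclude that same-numbered libraries shared a litter or a day. With the replicate block the counts were 23, 0, 0, 18, 17 and 5, against 23, 0, 0, 19, 17 and 5 in the order of αKOγKO, αHetγKO and αKOγWT against αHetγWT, αKOγKO against αKOγWT and against αHetγKO, and the interaction. With 2 pools a genotype and 28.2M to 36.8M reads a library, Col10a1, Col19a1 and Col6a4 were too low to test.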

Other observations

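Some members share exonic bases with another gene, and strand use in counting was not stated. Col9a3 shares 234 of its 3853 exonic bases with Tcfl5 on the opposite strand, which had at most 8 reads in a library. Col5a1 shares 99 and 113 of 8490 bases with antisense-side transcripts, and Col3a1 shares 141 of 9816 bases with a miRNA model on its own strand. For the other members with an overlap apart from Col4a3 and Col6a4, it was at most 79 bases.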
